A study of Saccharomyces cerevisiae with 2 samples.

Results

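The 10 genes of reductive iron uptake and vacuolar iron release listed next were followed in RNA of a YDR374C deletion strain and of a wild-type strain of the budding yeast Saccharomyces cerevisiae. They are FRE1, FET3, FTR1, ATX1, CCC2, FET5, FTH1, SMF3, FET4 and HMX1, and were taken as the non-control spots that carry these names in both scanner files. They make up 10 of 6256 genes on the array and 14 of 10263 gene spots, since 4 of them have their probe in 2 spots and 6 in 1 spot. The deletion strain (Δydr374c) and the wild type share the strain background BY4741, a haploid of mating type a in which URA3, LEU2, MET17 and part of HIS3 are removed. Both were grown in SD, a synthetic defined medium, and collected in mid-exponential growth at an OD600 of 0.7. On each of 2 two-colour Agilent arrays the deletion RNA was labelled with Cy5 (red) and the wild-type RNA with Cy3 (green), so a gene's own dye bias and a difference between the strains cannot be told apart. The labels do not say whether the arrays hold separate cultures, so p-values reflect only array-to-array spread, possibly technical. RNA came from whole cultures, in which fewer cells with a transcript and less of it per cell cannot be told apart.

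Yeast takes up ferric iron by first reducing it at the cell surface, a step of the Fre reductases. The ferroxidase Fet3 and the permease Ftr1 then carry the iron across the plasma membrane as one complex. Fet3 needs copper, which the chaperone Atx1 hands to the Golgi pump Ccc2 for loading into the enzyme. A related pair, Fet5 and Fth1, sits in the vacuolar membrane and, like the transporter Smf3, returns stored iron to the cytosol. Fet4 takes up ferrous iron with low affinity and also carries other metals, and Hmx1 is a haem oxygenase, which frees iron from haem. When iron is scarce, the transcription factors Aft1 and Aft2 turn on most of these genes together with those for siderophore uptake, so this system is a usual readout of iron status. The product of YDR374C is Pho92, a YTH-domain protein, and such domains recognise methylated RNA.

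The copper pump gene CCC2 and the vacuolar permease gene FTH1 were higher in the deletion RNA, and neither subunit of the uptake complex, FET3 or FTR1, passed the test. Of the 9 genes that could be tested, 4 were higher (CCC2, FTH1, ATX1 and FET4), none was lower and 5 did not pass (limma, Benjamini-Hochberg adjusted p under 0.05, over 5641 genes). An unadjusted p under 0.05 gave the same 4 genes, and 4200 of all 5641 tested genes. The largest difference was the 1.25-fold of CCC2. These counts stand against a background in which 73.1% of all tested genes were called, 36.4% as higher and 36.7% as lower. The share called here, 44.4% in either direction, was below that background. The median absolute log2 ratio was 0.06 in these 9 genes and 0.17 in all tested genes. Each of the 9 kept 1 sign on both arrays, as did 89.6% of all tested genes. No gene reached an absolute log2 ratio of 0.5, which 8.01% of all tested genes did, and 1 (CCC2) reached 0.25, which 34.1% did.

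**Figure D1:**
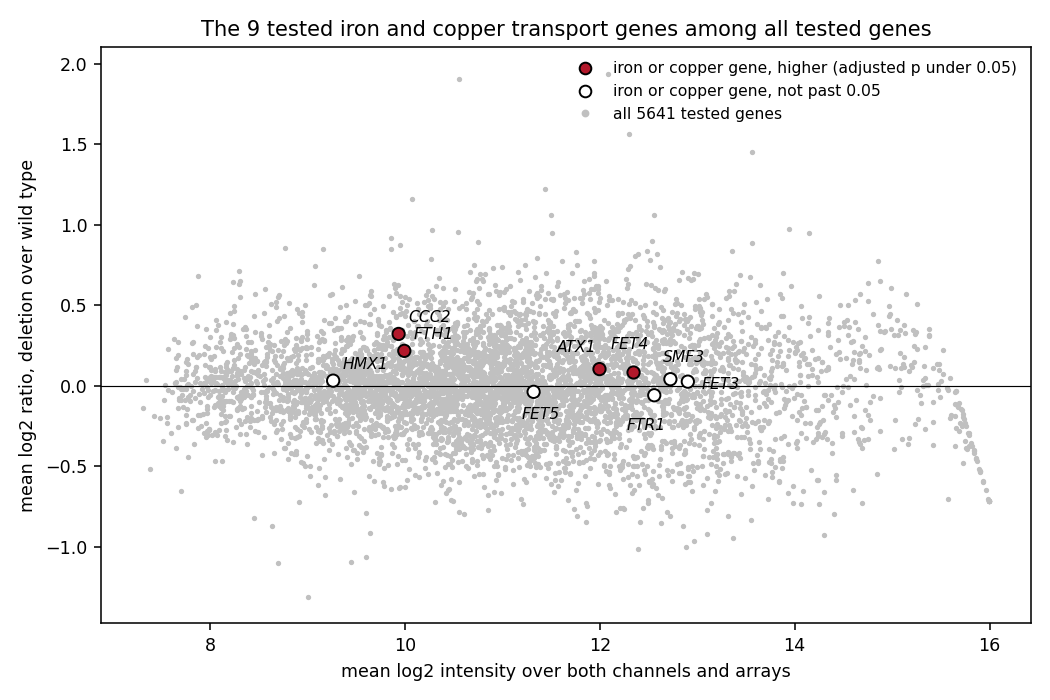
Mean log2 ratio, deletion over wild type, against mean log2 intensity over both channels and both arrays, for all 5641 tested genes (grey) and the 9 tested iron and copper transport genes (red where adjusted p was under 0.05, otherwise open). CCC2 and FTH1 lie above the zero line at intensities of 9.94 and 9.99, and the other 7 lie between -0.06 and 0.10.

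The signals of these genes were measurable throughout. All 28 spot measurements were well above background in both channels and none was saturated. The lowest processed signal (background-subtracted and dye-normalised by the scanner software) was 275 in deletion RNA and 268 in wild-type RNA, both of HMX1. Local background medians over all gene spots were 42 and 41 in the deletion channel and 36 and 38 in the wild-type channel. The scanner software marked 4 of the 28 measurements as non-uniform, namely the single FRE1 spot on both arrays and 1 spot each of CCC2 and FET4. Marked spots were left out, which removed FRE1 from the test. The deleted gene, YDR374C, was called lower in deletion RNA (-0.23 ± 0.03, SE, n = 2; limma adjusted p = 2.74e-05), the direction the labels give, but the call was lost with the scanner log ratio (-0.31, limma adjusted p = 0.0879) and the series table (-0.16, limma adjusted p = 0.0813). Its brighter spot read 223 and 238 in deletion RNA, against 271 and 247 in wild-type RNA, so signal was still present in the deletion channel. Its other spot failed the scanner software's background test in both channels, yet it is part of the mean ratio. On array 1 both spots had a log2 ratio of -0.24. On array 2 the failed spot had -0.39 and the brighter spot -0.04, so the call rests in part on the failed spot. Where this probe lies relative to the deleted stretch was not examined, so deletion RNA means the RNA labelled as such, and every direction rests on the dye labels. The probes of LEU2 and MET17, which are removed in BY4741, did not stand clear of background in any spot. URA3, also removed in BY4741, was well above background in every spot, with 135 to 235 in deletion RNA and 86.0 to 182 in wild-type RNA. HIS3, partly removed in BY4741, was also above background in every spot, with 64.6 to 143 in deletion RNA and 64.2 to 149 in wild-type RNA. It did not pass (-0.03 ± 0.04, SE, n = 2; limma adjusted p = 0.515). The probes of 6 genes specific to mating type a read 865 to 8990 in deletion RNA and 715 to 13411 in wild-type RNA. Those of 4 genes specific to mating type alpha read 43.0 to 909 in deletion RNA and 62.1 to 938 in wild-type RNA. The upper part of these ranges was MF(ALPHA)2 alone, from 696 in deletion RNA and 767 in wild-type RNA. STE3, MF(ALPHA)1 and SAG1 read at most 207 in deletion RNA and 213 in wild-type RNA.

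**Figure D2:**
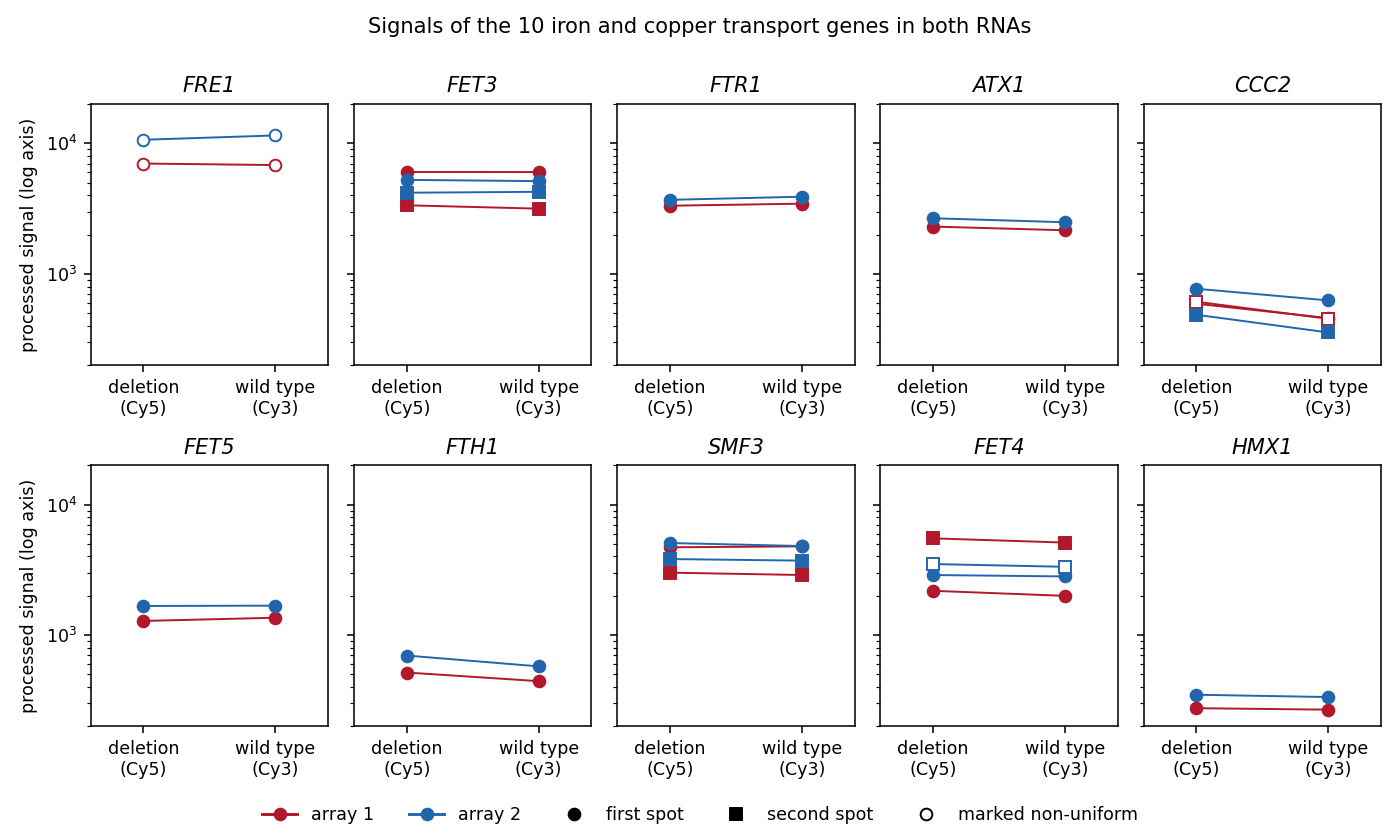
Processed signal of each spot (log axis) in deletion RNA (Cy5, left) and wild-type RNA (Cy3, right) for the 10 genes, with array 1 in red, array 2 in blue, squares for a second spot and open symbols for spots marked as non-uniform. The lines of CCC2 and FTH1 slope down from deletion to wild type on both arrays, and those of FET3, SMF3 and HMX1 are nearly level.

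FRE1, the surface reductase for ferric and cupric ions, read 7005 and 10653 in deletion RNA on arrays 1 and 2, against 6819 and 11500 in wild-type RNA. The deletion signal was thus above that of the wild type on array 1 and below it on array 2. With the marked spots kept, its log2 ratio was 0.04 on array 1 and -0.12 on array 2, with a mean of -0.04 ± 0.04 (SE, n = 2; limma adjusted p = 0.356 over all genes of that fit, of which 74% were called). Its spot was marked in both channels on both arrays, and it was the only gene of the 10 whose arrays differed in sign. When arrays were only centred on their median, FRE1 reached 0.18 (limma adjusted p = 0.00133), so its direction depends on the normalisation.

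FET3, the multicopper ferroxidase of the uptake complex, read 6034 and 3353 in deletion RNA in the 2 spots of array 1, against 6026 and 3160 in wild-type RNA. On array 2 the spots read 5251 and 4185 in deletion RNA, against 5135 and 4253 in wild-type RNA. The channels differed far less than the spots did. The spots of array 1 differed 1.80-fold in the deletion channel and 1.91-fold in the wild-type channel, yet their log2 ratios were 0.0066 and 0.09. The mean log2 ratio of FET3 was 0.03 ± 0.03 (SE, n = 2; limma adjusted p = 0.508), with a 95% interval from -0.05 to 0.10. FTR1, the permease that works with Fet3, read 3328 and 3692 in deletion RNA and 3450 and 3902 in wild-type RNA. It was slightly lower in deletion RNA on both arrays, with log2 ratios of -0.04 and -0.08. Its mean of -0.06 ± 0.03 (SE, n = 2; limma adjusted p = 0.147) did not pass, and the 95% interval ran from -0.13 to 0.02. On the linear scale the intervals ran from 0.967-fold to 1.07-fold for FET3 and from 0.912-fold to 1.01-fold for FTR1. After median centring FET3 passed with 0.17 (limma adjusted p = 0.00119), and FTR1 had 0.05.

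ATX1 and CCC2, which supply copper to Fet3, were both called higher in deletion RNA, as were 36.4% of all tested genes. ATX1, the cytosolic copper chaperone, read 2303 and 2668 in deletion RNA, against 2158 and 2486 in wild-type RNA. Deletion exceeded wild type on both arrays by nearly the same amount, with log2 ratios of 0.10 and 0.11. The mean was 0.10 ± 0.03 (SE, n = 2; limma adjusted p = 0.0135), a 7.51% difference. In absolute log2 ratio ATX1 exceeded 33.1% of all tested genes. CCC2, the Golgi pump that receives this copper, read 591 and 612 in deletion RNA in the 2 spots of array 1, against 458 and 453 in wild-type RNA. On array 2 it read 769 and 486 in deletion RNA, against 626 and 356 in wild-type RNA. All 4 spot measurements were higher in deletion RNA, with log2 ratios from 0.26 to 0.39. The highest of them came from the spot marked as non-uniform on array 1, which is left out of the mean. CCC2 averaged 0.32 ± 0.03 (SE, n = 2; limma adjusted p = 8.53e-07), a 1.25-fold difference with a 95% interval from 1.19-fold to 1.32-fold. Its absolute log2 ratio exceeded that of 76.9% of all tested genes. CCC2 passed in the 11 alternatives that tested it against 0, between 0.27 and 0.37, though some of these left its ratio unchanged. It did not pass against a change of 1.5-fold, which its ratio does not reach.

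Some measurements stand beside the CCC2 value. The scanner software's own p-values for its 4 spot ratios were 0.0829, 0.0406, 0.155 and 0.0367, from an error model for single spots. Those 2 under 0.05 were the only ones among the 28 spot measurements of these genes. The 0.0406 came from the spot marked as non-uniform, which is left out of the mean. URA3, removed in the BY4741 background of both strains, was also called higher (0.33 ± 0.04, SE, n = 2; adjusted p = 2.09e-06 in limma). That is as large as the difference of CCC2, and its spot ratios ran from 0.11 to 0.54. Whether the source of the URA3 ratio also acts on CCC2 or FTH1 was not tested.

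**Figure D3:**
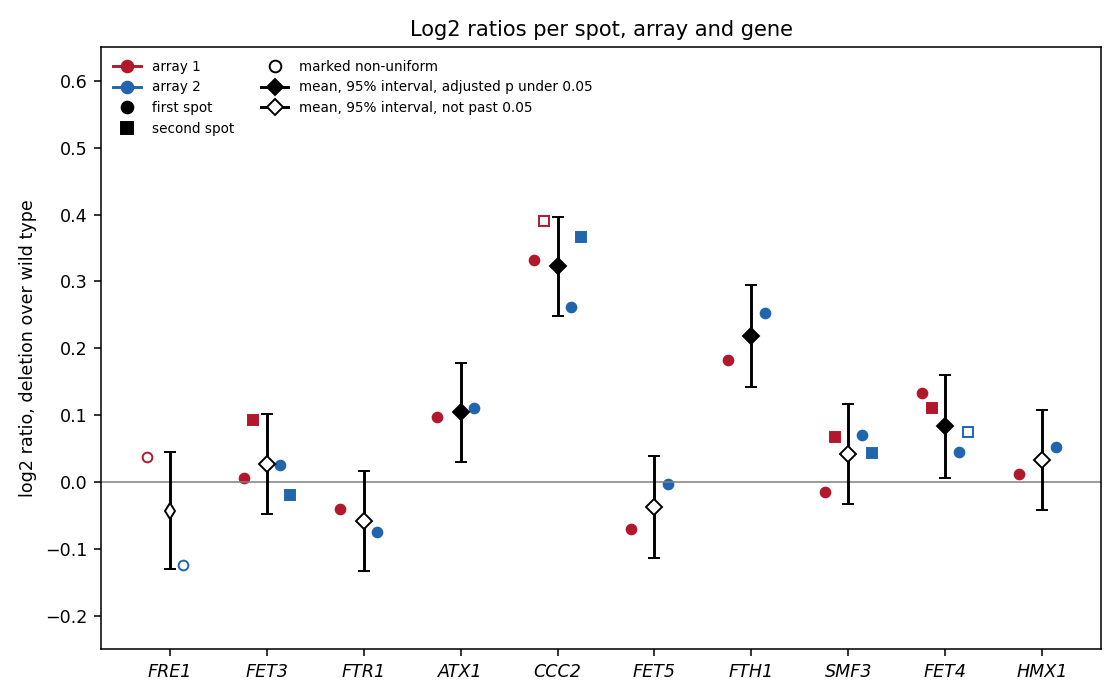
Log2 ratios, deletion over wild type, of each spot (array 1 red, array 2 blue, squares for a second spot, open for spots marked as non-uniform) with the mean of each gene and its 95% interval (black; FRE1 from the fit that keeps marked spots). The intervals of CCC2, FTH1, ATX1 and FET4 lie above 0, that of FET4 by only 0.0065, and the other 6 include 0.

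Of the vacuolar pair, FTH1 passed the test and FET5 did not. FET5, the ferroxidase of the vacuolar membrane, read 1283 and 1670 in deletion RNA, against 1358 and 1680 in wild-type RNA. Its log2 ratios of -0.07 and -0.0036 averaged -0.04 ± 0.04 (SE, n = 2; limma adjusted p = 0.365). Its 95% interval ran from -0.11 to 0.04. FTH1, its permease partner, read 516 and 697 in deletion RNA, against 444 and 576 in wild-type RNA. The deletion signal was above that of the wild type on both arrays. FTH1 had log2 ratios of 0.18 and 0.25 and a mean of 0.22 ± 0.04 (SE, n = 2; limma adjusted p = 6.44e-05), a 16.3% difference with a 95% interval from 1.10-fold to 1.23-fold. It passed in the 10 alternatives that tested it against 0, between 0.16 and 0.25, though some of these left its ratio unchanged. It did not pass against a change of 1.5-fold, which its ratio does not reach.

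FTH1 and FET5 are the relatives of FTR1 and FET3, and the members of each pair can be set against each other on the same array. The log2 ratio of FTH1 exceeded that of FTR1 by 0.22 on array 1 and 0.33 on array 2, with a mean difference of 0.28 ± 0.07 (SD, n = 2). The log2 ratio of FET5 lay below that of FET3 by 0.12 on array 1 and by 0.0067 on array 2, a mean difference of -0.06 ± 0.08 (SD, n = 2). The permeases thus differed by more than the spread between arrays and the ferroxidases by less. These differences were not tested. After median centring the differences became 0.11 for the permeases and -0.23 for the ferroxidases. Whether the probes of related genes tell them apart was not examined.

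SMF3, a metal transporter of the vacuolar membrane that exports iron, read 4704 and 3007 in deletion RNA in the 2 spots of array 1, against 4781 and 2885 in wild-type RNA. On array 2 it read 5074 and 3823 in deletion RNA, against 4810 and 3718 in wild-type RNA. One spot of array 1 was lower and the other 3 measurements were slightly higher in deletion RNA. The mean log2 ratio was 0.04 ± 0.03 (SE, n = 2; limma adjusted p = 0.292), with a 95% interval from -0.03 to 0.12. SMF3 passed after median centring with 0.16 (limma adjusted p = 0.00148).

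FET4, the low-affinity transporter, read 2183 and 5508 in deletion RNA in the 2 spots of array 1, against 1997 and 5112 in wild-type RNA. On array 2 it read 2885 and 3500 in deletion RNA, against 2813 and 3335 in wild-type RNA. Deletion exceeded wild type in all 4 measurements, with log2 ratios from 0.04 to 0.13. Its spots showed the widest gap of the duplicated genes, 2.52-fold in the deletion channel and 2.56-fold in the wild-type channel of array 1, while their log2 ratios differed by 0.02. The mean of 0.08 ± 0.04 (SE, n = 2; limma adjusted p = 0.0487) passed by a narrow margin. It was 0.04 without array 1 and 0.12 without array 2, neither with a test, and 0.16 after median centring, and the call was lost in 6 of 11 alternatives that tested it against 0 (limma adjusted p up to 0.125). FET4 is therefore the least secure of the 4 calls. HMX1, the haem oxygenase, read 275 and 349 in deletion RNA and 268 and 335 in wild-type RNA. Its log2 ratios of 0.01 and 0.05 averaged 0.03 ± 0.03 (SE, n = 2; limma adjusted p = 0.41), with a 95% interval from -0.04 to 0.11.

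How the arrays were normalised mattered most for the genes with bright spots. Loess removes a trend of the ratio with brightness, and median centring leaves it in. Centring raised the log2 ratio of FRE1 by 0.22 over loess, that of FET3 by 0.14, that of SMF3 by 0.12, that of FTR1 by 0.11 and that of FET4 by 0.08. It lowered those of HMX1, CCC2 and FTH1 by between 0.05 and 0.06. The first 5 had mean log2 intensities between 12.3 and 13.8, and the last 3 between 9.26 and 9.99. CCC2, FTH1 and ATX1 kept their calls under both, and they are the genes whose calls held under every alternative that tested against 0. Against a change of 1.5-fold (limma's treat), 0 of the 9 genes passed, also at an unadjusted p under 0.05, while 1.45% of all tested genes did after adjustment. None of the 9 could pass it, since their largest difference was 1.25-fold.

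**Figure D4:**
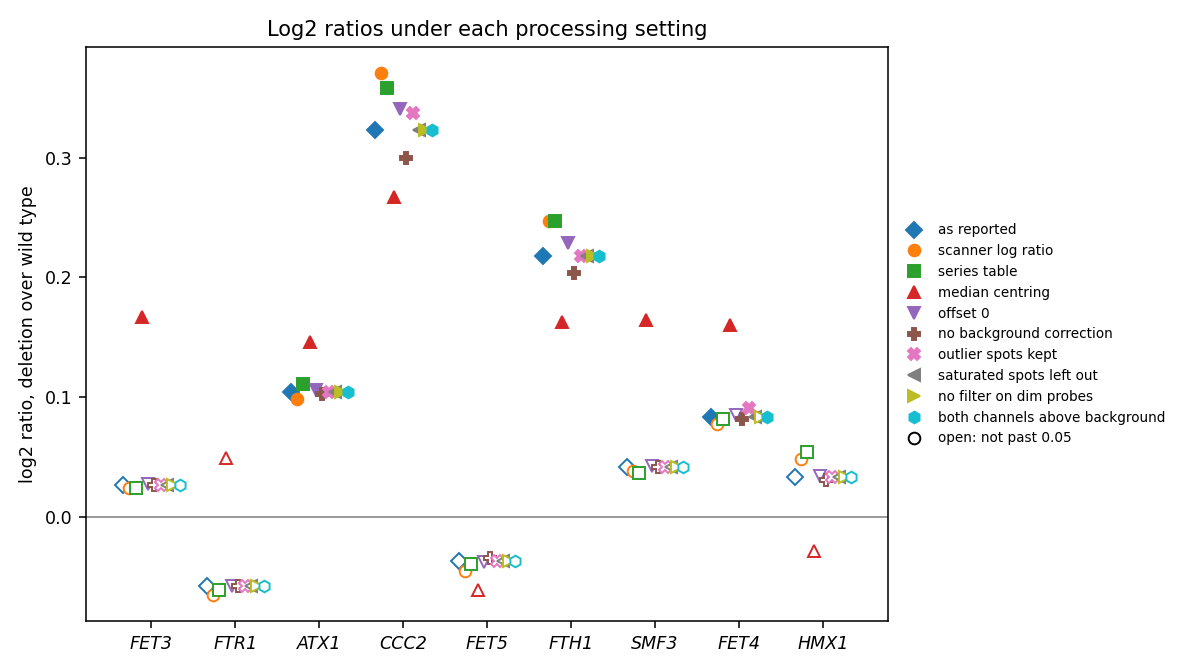
Log2 ratio, deletion over wild type, of the 9 tested genes under the reported processing and 9 alternatives (filled where adjusted p was under 0.05, open otherwise). Median centring (red triangles) lifts FET3, FTR1, SMF3 and FET4 and lowers CCC2, FTH1 and HMX1. The other settings run from 0.30 to 0.37 for CCC2 and from 0.20 to 0.25 for FTH1, and lie closer together for the other genes.

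Other genes of iron and copper handling give these values a setting. Of 80 genes on 9 lists 70 were tested, 24 were higher, 25 lower and 21 did not pass. That is 70% called, close to the 73.1% of all tested genes, and the median log2 ratio was -0.04 against -0.0019 over all. Calls thus went in both directions in nearly equal number. Over all tested genes 36.4% were called higher and 36.7% lower, and each list count below is to be read beside these shares.

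Siderophore uptake, the other branch under Aft1, had 6 of 9 genes higher and 2 lower, with a median log2 ratio of 0.38, against 0.04 for the reductive and vacuolar genes. ARN2, a siderophore transporter, was higher by 0.68 ± 0.04, the cell wall protein FIT2 by 0.48 ± 0.04 and the enterobactin transporter ENB1 by 0.47 ± 0.04 (SE, n = 2 each; limma adjusted p at most 2.95e-08). Each of them lay above the largest value of the reductive genes, the 0.32 of CCC2. After median centring 6 of 9 genes were higher in each branch, as were 2074 of 5641 genes of that fit. ARN2, FIT2 and ENB1 then had 0.66, 0.46 and 0.44, and CCC2, still the largest of the tested reductive genes, had 0.27. FET3, SMF3 and FET4 rose to 0.17, 0.16 and 0.16, so the low level of the reductive genes depends on the normalisation. The difference between the branches was not tested. The reductases other than FRE1 were split. FRE5 (0.23 ± 0.04) and the surface reductase FRE2 (0.17 ± 0.04) were higher, FRE7, a copper-regulated family member, was lower (-0.35 ± 0.04), FRE8, named after its value was seen, was lower (-0.10 ± 0.03), and FRE6 did not pass.

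Of 9 iron regulators 4 were higher and 2 lower. TIS11, whose protein speeds the decay of mRNAs for iron-using proteins, had 0.26 ± 0.03, FRA1, a repressor of the iron regulon, had 0.25 ± 0.03, and CTH1, a relative of TIS11, had -0.24 ± 0.03. AFT1 was lower, at -0.17 ± 0.04 (SE, n = 2; limma adjusted p = 0.000975), and AFT2 was higher, at 0.09 ± 0.04 (limma adjusted p = 0.028). These 2 were named after their values were seen. They were called in opposite directions, but AFT2 lost its call with the scanner log ratio, with the series table and after median centring (0.04, limma adjusted p = 0.351). Among 6 tested genes of vacuolar and mitochondrial iron transport 3 were higher and 1 lower. MMT1 (0.30 ± 0.03) and the mitochondrial iron importer MRS4 (0.24 ± 0.03) were higher, and MTM1, a mitochondrial carrier, was lower (-0.61 ± 0.03). CCC1, which moves iron into the vacuole, was not tested because no unmarked spot was left on at least 1 array. With marked spots kept, 4 of 7 genes of this list were higher and 1 lower.

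Copper uptake and delivery, the list nearest to ATX1 and CCC2, had 3 higher and 5 lower of 9. CTR1, the high-affinity copper transporter, was higher (0.28 ± 0.04), while CCS1, the chaperone that serves superoxide dismutase, was lower (-0.56 ± 0.04), as was the copper-sensing factor CUP2 (-0.49 ± 0.04). ATX1 and CCS1, which hand copper to different proteins, thus had ratios of opposite sign. Iron-sulphur cluster assembly had 2 higher and 6 lower of 10, with YAH1 (-0.42 ± 0.03), ISA2 (-0.32 ± 0.03) and JAC1 (-0.18 ± 0.04) lowest. Iron-dependent enzymes had none higher and 5 lower of 9 tested, among them cytochrome c peroxidase CCP1 (-0.55 ± 0.03), aconitase ACO1 (-0.24 ± 0.04) and RNR2 of ribonucleotide reductase (-0.29 ± 0.03, but -0.02 with no call after median centring). A further 4 enzymes of this list were lost through marked spots. With those spots kept, 4 of 13 were higher and 6 lower, and at an unadjusted p under 0.05 in limma 1 of the 9 (BIO2, named after its value was seen, 0.08 ± 0.03) was higher. Haem synthesis, which supplies the substrate of Hmx1, had 3 higher and 2 lower of 8. HEM13 (0.34 ± 0.04) and HEM12 (0.31 ± 0.03) were higher, and the ferrochelatase HEM15 (-0.14 ± 0.04) was lower. Of 5 other divalent metal transporters 1 was higher, the vacuolar transporter COT1 (0.27 ± 0.04), and none was lower, also at an unadjusted p under 0.05 in limma. With marked spots kept 2 of 8 were higher and 3 lower. Median centring moved some of these list values by over 1.5 times with the call kept, to 0.51 for CTR1, 0.60 for HEM13, 0.11 for FRE2, -0.12 for JAC1 and -0.16 for FRE8. Leaving out an array moved 3 of the genes named from these lists by over 1.5 times: HEM15 had -0.08 without array 1, and AFT1 had -0.11 and AFT2 0.06 without array 2, none with a test.

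**Figure D5:**
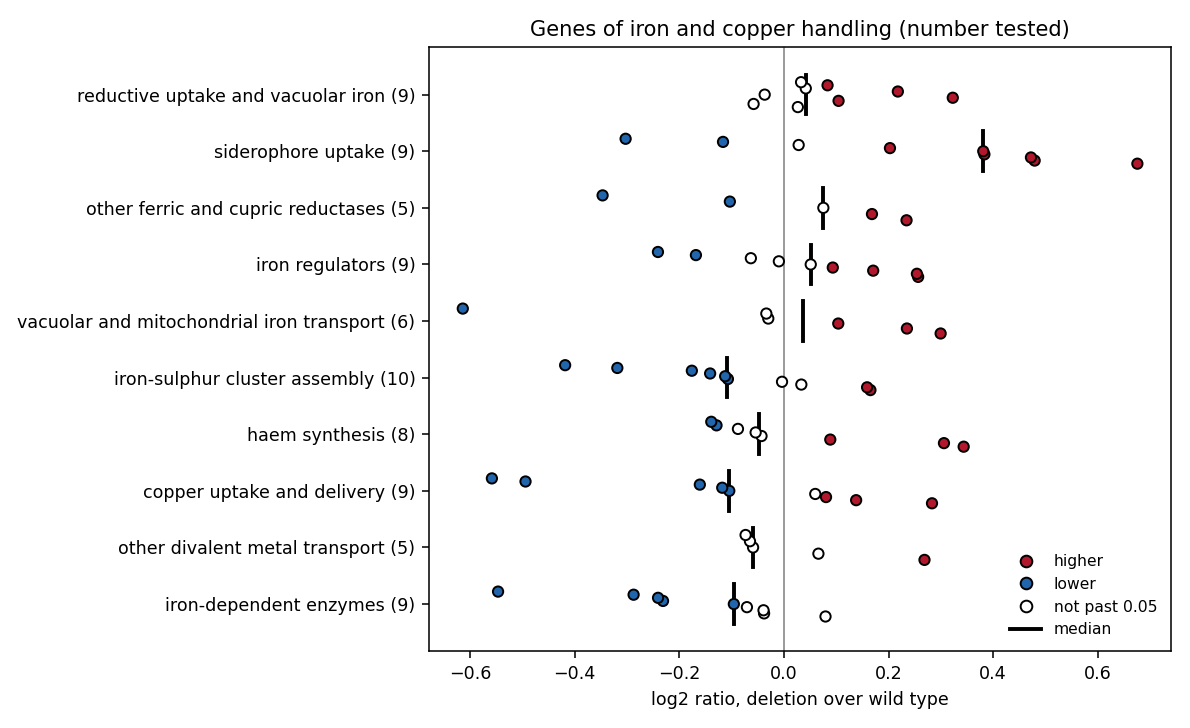
Log2 ratio, deletion over wild type, of the tested genes in each list (number tested in brackets), red where higher, blue where lower and open where adjusted p was not under 0.05, with the list median as a bar. The reductive uptake and vacuolar iron genes spread from -0.06 to 0.32, and the siderophore genes from -0.30 to 0.68.

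The 10 genes lie on 7 chromosomes. No 2 of them are neighbours in the RefSeq gene order of assembly R64, and the closest are 9 genes apart. CCC2 and FTH1, the genes with the largest ratios, are on chromosomes IV and II.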

How the data were processed

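Spot intensity and local background per channel were deposited as scanner output, from Agilent Feature Extraction 9.5.3.1 per the file headers and from version 9.3.2.1 in the submitters' processing notes. A log10 ratio (red over green, dye-normalised by that software) and its p-value stand in the same deposited files. The authors' log2 values per probe, from the series table, ran with the scanner ratios (r = 0.994 and 0.990 across probes). How those log2 values were made was not stated in the sources.

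With limma 3.58.1 in R 4.3.3, mean signals were corrected by normexp (offset 50) and normalised by loess, in which control spots had weight 0. Spots marked as outliers were left out (6.47% and 8.92% of gene spots), and spots of a probe averaged. Genes that cleared background in either channel, on each of the arrays, were tested against 0 with limma's moderated test and Benjamini-Hochberg adjustment at 0.05. The test was checked on simulated data. Median gene spots read 2105 and 3105 in the deletion channel and 1597 and 2371 in the wild-type channel, and the number of arrays (2) limits the precision.

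The genes followed and the lists were chosen with earlier results of these data known. From each list up to 3 called genes with the largest absolute ratio and 1 sign on both arrays are named. Gene names came from RefSeq assembly R64, which held 5756 of 6256 systematic names. Coordinates are not given, since the files name no build. Probe, promoter and protein sequences were not used here. Alternatives were 9 other processing settings, each array left out, a test against 1.5-fold, and, chosen after seeing the data, marked spots at weight 0 in the loess, each duplicate spot alone, and the FRE1 spot kept under other settings.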

Additional observations from a re-analysis of the deposited data

How the results depend on the processing

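Of 103 recomputed values of the 10 genes with a test against 0, 94 kept their side of the threshold and 92 of these also their sign. Part of these could not differ in ratio. No spot of these genes was saturated or failed the background filter, so those settings changed only the adjusted p. Keeping marked spots changed the ratios of CCC2 and FET4 alone among the tested genes. Among these alternatives ATX1, CCC2, FTH1, FET5, FTR1 and HMX1 had no change of call. FET4 lost its call with the scanner log ratio (0.0772, limma adjusted p = 0.125), the series table (0.0814, 0.102), offset 0 (0.0845, 0.0634), no filter on dim probes (0.0834, 0.052), marked spots at weight 0 in the loess (0.0762, 0.0833) and its first spot alone (0.0888, 0.0641). Median centring brought calls for FET3 (0.17) and SMF3 (0.16), turned FRE1 (0.18) and moved the pair differences to 0.11 (FTH1 minus FTR1) and -0.23 (FET5 minus FET3). It also turned the signs of FTR1 (0.05) and HMX1 (-0.03), neither of which passed. By construction, centring leaves a trend with brightness in the ratios. The count of 4 higher genes became 2 of 7 with second spots alone, where fewer genes were tested and 1735 of 5177 were higher over all. After median centring the count was 6 of 9, beside 2074 of 5641 over all. Against a 1.5-fold change it was 0, an outcome fixed beforehand because CCC2, FTH1, ATX1 and FET4 all had ratios below 1.5-fold. In the pathway lists, median centring gave 4 lower haem genes in place of 2, 3 higher and 1 lower divalent metal transporters in place of 1 and 0, and 2 higher iron-dependent enzymes in place of 0. Without background correction, without saturated spots and with both channels above background, 1 such enzyme (BIO2) was higher. With single spots alone, which tests fewer genes, 9 list counts moved by over 1.5 times. With 1 array left out there is no test. FET4 was then between 0.04 and 0.12, FRE1 between -0.12 and 0.04, and CCC2 between 0.31 and 0.33. The ratio within each array already pairs the 2 RNAs, and with 1 group of ratios no replicate block could be added to it. The SE is limma's moderated one, which pools the spread between 2 arrays over all tested genes. It is thus not a gene's own spread alone, and it covers no dye effect of a gene.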
